A study of Mus musculus with 2 samples.

Results

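The miRNAs of the imprinted Dlk1-Dio3 locus on mouse chromosome 12 were examined in small RNA libraries of unstimulated bone marrow-derived macrophages (BMDMs), that is, of macrophages grown in culture from the progenitors of mouse bone marrow. A mature miRNA name was taken as a member when the number after miR- belonged to a hairpin of the locus, whatever its arm or letter suffix. By this rule, 103 of the 1915 mature names in the count table were members, from 52 hairpins. The series holds a single condition, wild type C57/BL6 mice aged 8 weeks with no stimulation of the macrophages, and 2 libraries labelled as biological replicates. Total RNA was depleted of rRNA before small RNA libraries were made and sequenced. The counts are reads assigned to mature miRNAs, with a total of 7322969 in replicate 1 and 8094314 in replicate 2. Levels are given as reads per 1000000 miRNA reads (RpM), so that a single read equals 0.137 RpM in replicate 1 and 0.124 RpM in replicate 2. Where no read was counted, the limit used is the level of 3 counts, 0.410 RpM for replicate 1 and 0.371 RpM for replicate 2. The upper end of the exact Poisson 95% interval for a count of 0 is higher, at 3.69 reads. Intervals are 95% Wilson intervals unless another kind is named. Intervals and limits cover counting error alone, because the reads carry no molecular identifiers and PCR copies are not independent.

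The Dlk1-Dio3 locus is imprinted: the protein-coding genes Dlk1, Rtl1 and Dio3 are expressed from the paternal chromosome, and the noncoding RNAs Meg3, Rian and Mirg, together with the miRNAs, from the maternal one. The miRNAs are cut from long transcripts read in the direction of Meg3, and those that lie opposite Rtl1 are fully complementary to its mRNA, and several direct its cleavage. The locus is known for high miRNA expression in brain, embryo and placenta, and in the blood lineage for its activity in long-term haematopoietic stem cells.

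The sequences of the 8 members with reads in both libraries are shown first, because all statements on repeated detection rest on them. They are RefSeq mature sequences for GRCm38.p6, written 5′ to 3′, and capitals mark the seed, bases 2 to 8, which pairs with target mRNAs.

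miR-127-3p: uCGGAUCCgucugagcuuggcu

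miR-434-3p: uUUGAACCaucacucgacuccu

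miR-136-5p: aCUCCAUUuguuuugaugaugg

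miR-136-3p: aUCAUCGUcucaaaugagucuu

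miR-411-5p: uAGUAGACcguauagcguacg

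miR-381-3p: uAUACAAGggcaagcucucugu

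miR-369-3p: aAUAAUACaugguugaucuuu

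miR-410-3p: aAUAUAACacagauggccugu

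The following pair is shown for what was seen in a single library. The first had the highest count of any member absent from the other library, and the second is the closest relative of miR-381-3p in the table.

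miR-541-5p: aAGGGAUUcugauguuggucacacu

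miR-300-3p: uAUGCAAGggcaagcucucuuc

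The locus was nearly silent in resting BMDMs. All members together held 34 reads in replicate 1 and 34 reads in replicate 2. This corresponded to 4.64 RpM (95% interval 3.32 to 6.49) in replicate 1 and 4.20 RpM (95% interval 3.01 to 5.87) in replicate 2. The mean was 4.42 ± 0.313 RpM (SD, n = 2), and the intervals of the libraries overlapped. As a percent of all miRNA reads, the whole locus made up 0.000464% in replicate 1 and 0.00042% in replicate 2. Many single miRNAs exceeded the sum of the locus, 360 names in replicate 1 and 351 in replicate 2. miR-21a-5p, the most abundant miRNA of these cells, exceeded it 60252-fold in replicate 1 and 61206-fold in replicate 2. In bulk RNA of this kind, expression in few cells and low expression in many cannot be told apart.

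Detection was as sparse as the level. In replicate 1, 14 members had at least 1 read, and in replicate 2, 13 had. Both libraries shared 8 of the 103 members (7.77%), while 40.5% of all 1915 names had a read in each library. Neither library held a read of 84 members (81.6%), against 47.1% of all names. At a stricter level of 10 reads in each library, miR-127-3p was the single member left, where 23.4% of all names passed. The median summed count was 0 for the members and 1 for all names. These shares describe the table, and no test of the list was made. Over all names with a read, the median count was 14 in replicate 1 and 12 in replicate 2, and every member lay below it in each library.

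**Figure D1:**
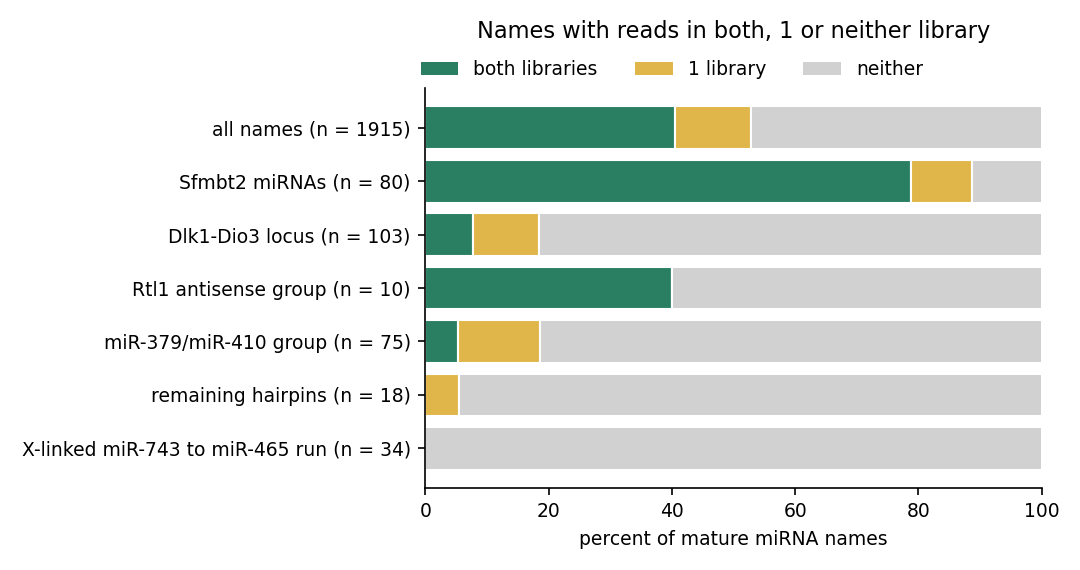
Percent of mature miRNA names with reads in both libraries (green), in 1 library (yellow) or in neither (grey), for the whole table, the locus, its 3 groups and other sets of names, with the number of names in brackets. The locus has reads of 7.77% of its names in both libraries, and the whole table of 40.5%.

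The Rtl1 antisense group comprises miR-431, miR-433, miR-127, miR-434 and miR-136, whose hairpins lie on the strand opposite to Rtl1, a retrotransposon-derived gene needed in the placenta. This group held 16 reads in replicate 1 (2.18 RpM) and 17 in replicate 2 (2.10 RpM). It thus accounted for 47.1% of the reads of the locus in replicate 1 (95% interval 31.5 to 63.3) and for 50.0% in replicate 2 (95% interval 34.1 to 65.9), although it has 10 of the 103 names. Much of this was miR-127-3p, without which the group held 4 of 22 reads in replicate 1 (18.2%, 95% interval 7.31 to 38.5) and 6 of 23 in replicate 2 (26.1%, 95% interval 12.5 to 46.5). Of these 10 names, 4 had reads in each library, as had 40.5% of the table, and 6 were at 0 throughout. Thus no member of this group was seen in a single library, against 237 of all 1915 names. The hairpins miR-431 and miR-433 had no read.

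miR-127-3p was the most abundant member. It had 12 reads in replicate 1 (1.64 RpM) and 11 in replicate 2 (1.36 RpM), with a mean of 1.50 ± 0.198 RpM (SD, n = 2), and ranked 456 of 1915 names. With so few reads, counting error alone gives exact Poisson 95% intervals of 6.20 to 21.0 reads and 5.49 to 19.7 reads. This member had the highest count of the locus in both libraries, and no other exceeded 5 reads. The intervals overlapped, however, with those of the next members, 1.62 to 11.7 reads for miR-541-5p in replicate 1 and 1.09 to 10.2 reads for miR-369-3p in replicate 2. Its share of all reads of the locus was 35.3% in replicate 1 (95% interval 21.5 to 52.1) and 32.4% in replicate 2 (95% interval 19.1 to 49.2), on average 33.8% ± 2.08 (SD, n = 2). In the table as a whole, the leading name miR-21a-5p held 28.0% of the reads in replicate 1 and 25.7% in replicate 2.

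The mature miR-127-3p lies in the 3′ arm of its hairpin, whereas the 5p name had no read. In GRCm38.p6 the hairpin spans chr12:109592846-109592915 on the plus strand, 51.8 kb from the annotated start of Meg3. It falls within the annotated extent of Rtl1, which runs on the minus strand. The hairpin is shown because it gave the most reads, with the bases of the detected arm in capitals.

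miR-127 hairpin: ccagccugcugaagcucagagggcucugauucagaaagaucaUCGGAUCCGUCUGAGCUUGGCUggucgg

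miR-136 was the single hairpin with reads of both arms, and both arms were seen in each library. miR-136-5p had 1 read in replicate 1 and 3 reads in replicate 2. miR-136-3p had 1 read in each. The hairpin covers chr12:109595327-109595388 on the plus strand, also opposite Rtl1, and it is shown with both detected arms in capitals. The miR-3071 names come from the opposite strand of this hairpin and had no read.

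miR-136 hairpin: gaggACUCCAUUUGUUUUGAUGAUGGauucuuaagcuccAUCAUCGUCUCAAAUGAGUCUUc

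The remaining detected member of the group, miR-434-3p, had 2 reads in each library. Its mean was 0.260 ± 0.0184 RpM (SD, n = 2), which is below the level of 3 counts in either library.

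The miR-379/miR-410 group is the larger cluster at the distal end of the locus, known from neurons, where its primary transcript is induced by activity and miR-134 restrains the growth of dendritic spines. By number, the group also takes in miR-496b, a name at 0 in both libraries whose hairpin RefSeq places on chromosome 19. The 75 names from 38 hairpins counted here, miR-496b among them, held 18 reads in replicate 1 (2.46 RpM) and 16 reads in replicate 2 (1.98 RpM). The share of the locus was 52.9% in replicate 1 (95% interval 36.7 to 68.5) and 47.1% in replicate 2 (95% interval 31.5 to 63.3), with a mean of 50.0% ± 4.16 (SD, n = 2). These reads were spread thinly over the group. Of the 75 names of the group, 4 had reads in both libraries (5.33%), 10 in a single library and 61 in neither (81.3%). The share in a single library was near that of the table, where it was 237 of 1915 names. The share without a read was above the 47.1% of all names, and miR-134, the best studied member of the cluster, was among them.

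Repeated detection in this cluster was limited to miR-411-5p, miR-369-3p, miR-381-3p and miR-410-3p. miR-411-5p had 3 reads in replicate 1 and 2 in replicate 2, a mean of 0.328 ± 0.115 RpM (SD, n = 2). miR-369-3p had 1 read and 4 reads, with a mean of 0.315 ± 0.253 RpM (SD, n = 2). miR-381-3p had 2 reads in each library, with a mean of 0.260 ± 0.0184 RpM (SD, n = 2). The last of them, miR-410-3p, sits in the final hairpin of the cluster, 202.7 kb from the Meg3 start. It had 1 read in replicate 1 and 3 in replicate 2, a mean of 0.254 ± 0.166 RpM (SD, n = 2). The order of these miRNAs was not resolved, since their means differed by less than the SD of miR-369-3p.

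Several members of the cluster appeared in 1 library. miR-541-5p had 5 reads in replicate 1 and none in replicate 2, miR-409-3p had 2 and none, and miR-495-3p had none and 2. Single reads of miR-300-3p, miR-376b-3p, miR-380-3p and miR-485-5p occurred in replicate 1, and of miR-376a-5p, miR-382-5p and miR-667-3p in replicate 2. At this depth a single read does not set a level. The miR-376 hairpins are known for A-to-I editing of their primary transcript in brain, and how edited reads were assigned is not given in the sources used here.

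The third group holds the other 9 hairpins, from miR-770 in Meg3 to miR-370 in Rian. It had no read in replicate 1 and 1 read in replicate 2, which belonged to miR-341-3p. Of its 18 names, 17 had no read in either library (94.4%, against 47.1% of all names). Hence the proximal part of the locus up to Rtl1 gave no read at all.

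**Figure D2:**
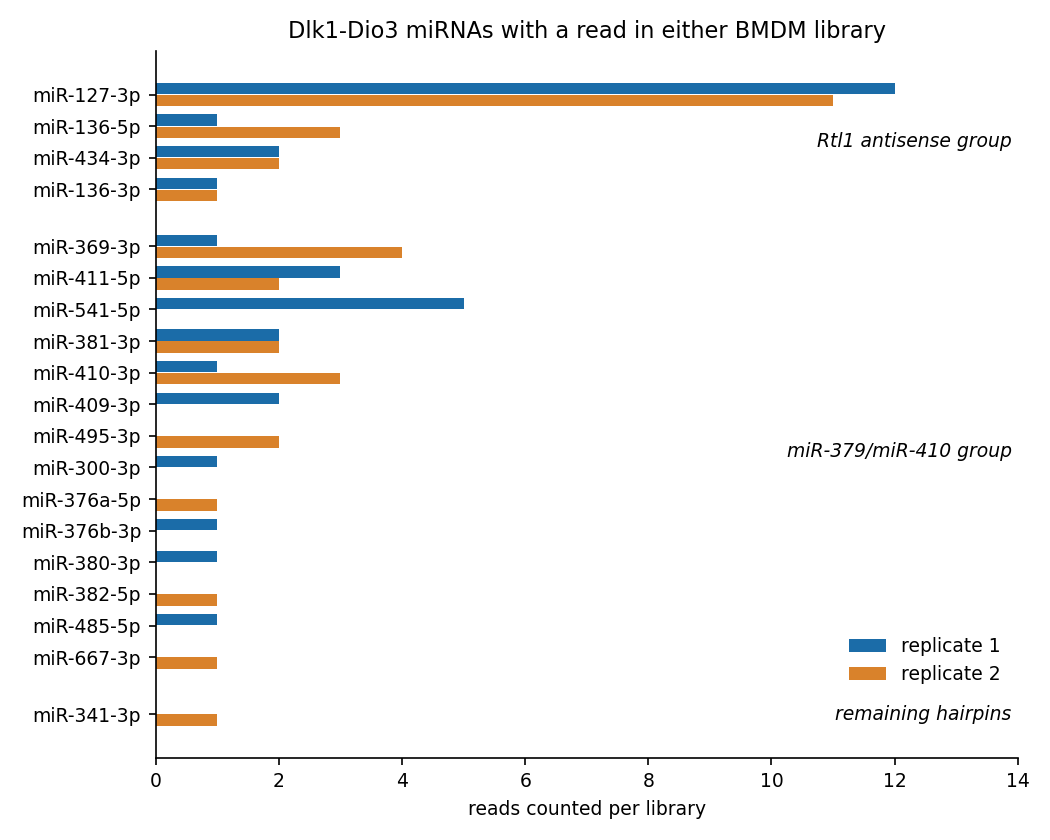
Reads counted in replicate 1 (blue) and replicate 2 (orange) for the 19 members with a read in either library, grouped by position in the locus. The horizontal axis is the number of reads per library, and miR-127-3p, with 12 and 11 reads, has the highest count, and the other members have 5 reads or fewer.

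Along the chromosome, 51 of the 52 hairpins lie within 180.104 kb of chromosome 12, and 50 of them are on the plus strand, with miR-299b as the exception. The other hairpin is miR-496b on chromosome 19. Of the 52 hairpins, 18 had a read in either library, 7 had reads in both, and 34 had none. The share over all 1165 hairpins of the count table was not computed, so these counts describe the locus alone. By name, 81.6% of the members and 47.1% of all names had no read. The hairpins seen in both libraries were miR-127, miR-434, miR-136, miR-411, miR-381, miR-369 and miR-410. Reads were found over Rtl1 and scattered along the distal cluster.

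The first 8 hairpins, miR-770, miR-673, miR-493, miR-337, miR-540, miR-665, miR-431 and miR-433, formed an unbroken stretch of 28.1 kb without a read. The next 4, miR-127, miR-434, miR-136 and miR-341, all had reads. They were followed by miR-1188, miR-370 and miR-379 at 0, a stretch of 97.3 kb that includes the wide gap before the distal cluster. Within the cluster, miR-299a, miR-299b and then 9 neighbouring hairpins, miR-1197, miR-323, miR-758, miR-329, miR-494, miR-679, miR-1193, miR-666 and miR-543, were at 0. Further towards Mirg, no read was counted for miR-376c, miR-654, miR-487b, miR-539 and miR-544. Inside Mirg, miR-134, miR-668, miR-154, miR-496a, miR-377 and miR-412 were also without reads. Silent and detected hairpins therefore alternated over the distal cluster, where neighbours lie close together. With detected hairpins of the cluster at 0 to 5 reads per library, a hairpin without reads could not be told from its neighbours at this depth.

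Most reads of the locus came from hairpins outside annotated host transcripts, which also hold most of its names. In the GENCODE annotation, 12 hairpins lie within the extent of Mirg on the same strand, and they had 10 reads in replicate 1 and 8 in replicate 2. Of these 12, 6 had a read in either library and 2 had reads in both. The 3 hairpins within Rian had 0 reads and 1 read, and miR-770, the single member hairpin within Meg3, had none. The other 35 hairpins, with 70 of the 103 names, lie in no annotated host on their strand. They had 24 reads in replicate 1 and 25 in replicate 2, of which miR-127-3p alone gave 12 and 11. Of these 35 hairpins, 11 had a read in either library and 5 had reads in both. Such shares were not computed for hairpins outside the locus, so these counts describe the locus alone. Mirg extends from 109729764 to 109749460 and Meg3 from 109541001 to 109571726 on the plus strand of chromosome 12 in GRCm38. A further 10 names whose hairpins lie between the first and the last member hairpin, among them both arms of miR-3071 and of miR-3544 as well as miR-432 and miR-453, were not members by number. All 10 had no read in either library, nor had miR-1906 in Meg3 and both arms of miR-3072 in Mirg, which lie outside that span.

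**Figure D3:**
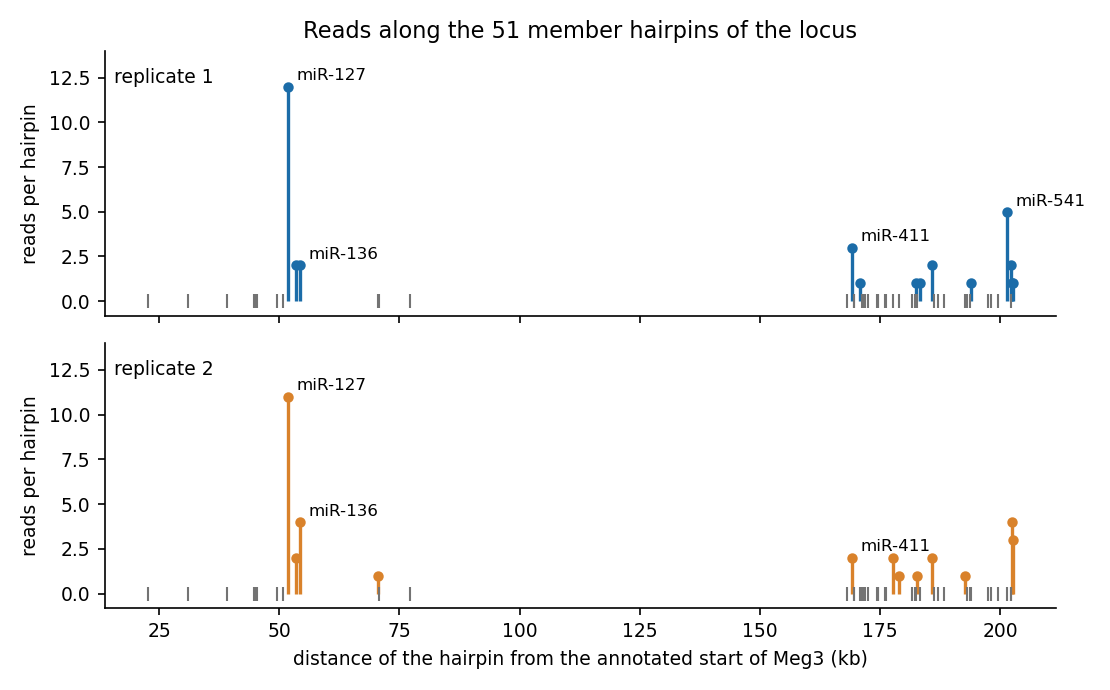
Reads per hairpin in replicate 1 (top, blue) and replicate 2 (bottom, orange) against the distance of the hairpin from the annotated start of Meg3 in kb, for the 51 hairpins on chromosome 12. Grey ticks mark hairpins without a read, and miR-127, at 51.8 kb, carries the most reads in both libraries.

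Reads of the locus came mainly from 3p arms. The 51 names of 3p arms had 24 reads in replicate 1 and 27 in replicate 2, and the 51 names of 5p arms had 10 and 7. Of the 3p names, 13 were seen in either library (25.5%), and of the 5p names, 6 (11.8%). In the whole table the corresponding shares were nearly equal, 57.3% for 3p and 54.6% for 5p names. By reads the table as a whole leaned to 5p names, with 4525982 and 5131250 reads against 2721765 and 2881896 for 3p names. Since miR-127-3p alone gave 12 and 11 of the 3p reads, the remaining 3p members were closer to the 5p members in number. Per hairpin, 12 of the 18 detected hairpins had 3p reads alone, 5 had 5p reads alone, and miR-136 had both.

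The detected members were also compared by sequence with one another and with other miRNAs. RefSeq held a mature sequence for 99 of the 103 members and for 1623 of the 1915 names of the table. The 18 detected members with a sequence had 18 different seeds, so no seed was represented by more than 1 detected member. Within the locus 7 seeds were shared by a pair of members, such as miR-379-3p with miR-411-3p and miR-376b-5p with miR-376c-5p, and all members of these pairs were at 0. Outside the locus, 3 detected members had a seed match. The seed of miR-410-3p is also that of miR-344d-3p and miR-344e-3p, that of miR-411-5p is found in miR-7229-5p, and that of miR-495-3p in miR-1192.

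Over the whole mature sequence, each of the 18 detected members with a sequence differed by at least 5 bases from every name outside the locus that has a sequence, when compared over at least 18 bases and at shifts of up to 3 bases. miR-127-3p differed from its nearest such name, miR-190b-5p, by 7 bases. Within the locus, miR-341-3p and miR-341-5p, the arms of 1 hairpin, differed by 2 bases. miR-381-3p and miR-300-3p differed by 3 bases, as did miR-376b-3p and miR-376a-3p. A read with errors could move between the names of such a pair, and the mismatches allowed are not given in the sources used here. The GC content of the detected members had a median of 44.7% (23.8 to 66.7, n = 18), and that of the members at 0 a median of 50.0% (31.8 to 76.2, n = 81). The ranges overlapped widely, and the median length was 22 bases in both sets.

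The libraries were close in what the locus held as a sum, and less so in which members they held. The log2 ratio of the summed level, replicate 2 over replicate 1, was −0.14 (95% interval −0.87 to 0.59). For miR-127-3p it was −0.27 (95% interval −1.59 to 1.04). These are exact binomial intervals, taken at the given summed count. Both intervals include 0, and they also include changes of a size that could not be detected with these reads. Fisher's exact test with Benjamini-Hochberg adjustment was applied to each name with at least 10 reads summed, which compares these libraries and not conditions. Its p-values set the difference between the libraries against counting error alone, without the spread between samples. Over the 588 names tested, 44.2% were called different at an adjusted p under 0.05. Among the members, miR-127-3p was the only name tested, and 0 members were called by Fisher's exact test and 0 had an unadjusted p under 0.05. Its exact p was 0.681 and its adjusted p 0.819. Without the minimum, 24.4% of 1013 names were called, and of the 19 members tested 0 were called by Fisher's exact test and 1 had an unadjusted p under 0.05. This was miR-541-5p, with 5 reads against none (exact p = 0.0242, adjusted p = 0.0922). No other member apart from miR-127-3p had more than 5 reads summed, so the depth left little room for a call.

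The members seen in both libraries made up 57.1% of those detected in replicate 1 and 61.5% of those detected in replicate 2. Over the whole table the overlap was larger, with 776 names shared of 891 detected in replicate 1 and 898 in replicate 2. The shared members carried 23 of the reads in replicate 1 and 28 in replicate 2. In replicate 1 alone, 6 members were seen with 11 reads in all, and in replicate 2 alone, 5 members with 6 reads. Of all 1915 names, 237 were seen in a single library. Most of the reads of each library thus fell on the shared members, with 12 and 11 of them on miR-127-3p. Without miR-127-3p, the locus held 22 reads in replicate 1, of which 11 were on members seen in that library alone. In replicate 2 it then held 23 reads, 6 of them on such members. A member with more reads is also more likely to be seen in both libraries. Names of like depth were set beside these members. Of the 10 members with 2 to 5 reads summed, 7 were present in both libraries (70.0%), against 59.2% of all 201 names at this depth. The difference between these shares was not tested. The 201 names include the 10 members, and counts within the range of 2 to 5 reads were not matched.

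Other imprinted miRNA loci differed in level among themselves. The H19 miRNA miR-675 and the Igf2 miRNA miR-483 had no read in either library. miR-335 of Mest had 2 reads in replicate 1 (0.273 RpM) and 4 in replicate 2 (0.494 RpM), all from its 3p arm. These 3 loci were therefore below the sum of the Dlk1-Dio3 locus in each library.

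The remaining imprinted loci were far above it. miR-296 and miR-298 of the Gnas locus together had 309 RpM in replicate 1, and 874 RpM in replicate 2, mainly as miR-298-5p with 2141 and 6807 reads. Names counted for the Sfmbt2 cluster, miR-297, miR-466, miR-467 and miR-669, were taken by number, and their positions were not checked. Together they reached 1121 RpM in replicate 1, and 621 RpM in replicate 2. Of these names, 63 of 80 (78.75%) had reads in both libraries, against 40.5% of all names. Several of them are near-identical and have equal counts, such as miR-467a-5p and miR-467b-5p with 589 reads each in replicate 1. Their sum may therefore hold the same reads more than 1 time.

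**Figure D4:**
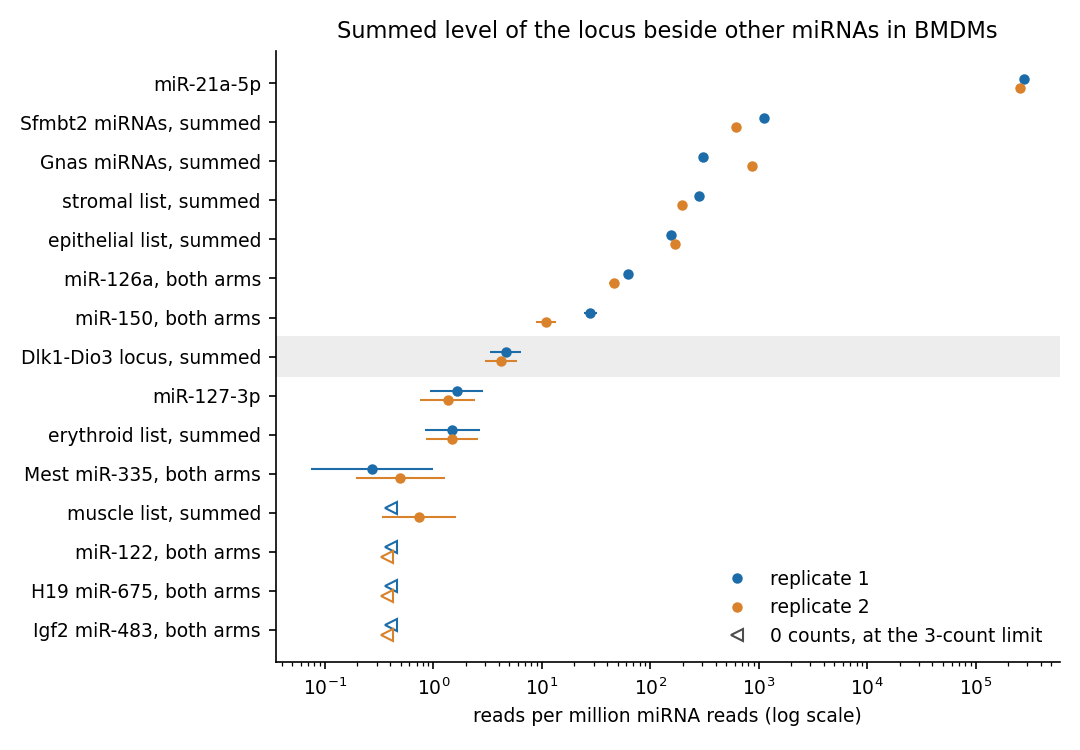
Level in RpM, on a log axis, in replicate 1 (blue) and replicate 2 (orange) for the summed locus (grey band), miR-127-3p, miR-21a-5p, other imprinted loci and cell type lists. The macrophage and myeloid list and the neural list, the latter at 324 and 384 RpM, are not drawn. Bars are 95% Wilson intervals for counting error, and open triangles mark 0 counts, drawn at the level of 3 counts. The locus, at 4.64 and 4.20 RpM, lies between miR-150 and miR-127-3p.

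Long runs of neighbouring miRNA hairpins differed widely in these cells, from fully covered to empty. All 11 names from miR-17-5p to miR-92a-3p, the proliferation-associated miR-17-92 cluster, had reads in both libraries, with sums of 67236 and 66312. Of the 13 names from miR-450b-3p to miR-322-5p on the X chromosome, 12 had reads in both, with sums of 26326 and 31820. Coverage was intermediate for the 11 names from miR-363-3p to miR-106a-5p on the same chromosome, of which 6 had reads in both. Its names miR-92a-3p, the most abundant with 47175 and 48629 reads, and miR-19b-3p also come from hairpins of the miR-17-92 cluster, so these runs share reads. At the other extreme, all 34 names from miR-743a-3p to miR-465a-5p on the X chromosome, a testis-expressed run, were at 0. The run from miR-290b-3p to miR-295-3p on chromosome 7, known from embryonic stem cells, had 2 reads in replicate 1 and 1 in replicate 2, and 14 of its 17 names were at 0. In a further run on chromosome 7, 19 names of miR-344 had 0 reads and 3 reads, the latter all from miR-344d-3p. With reads of 7.77% of its names in both libraries, the Dlk1-Dio3 locus was closer to the nearly empty runs.

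The reads were also set beside lists of miRNAs known from cell types. All 12 names of the macrophage and myeloid list had reads in both libraries, with sums of 2645437 in replicate 1 and 2890769 in replicate 2. miR-21a-5p was the most abundant, the myeloid miR-223-3p had 44323 and 36301 reads, and miR-511-3p, encoded in the mannose receptor gene of macrophages, had 3250 and 2838 reads. The lowest name of the list, miR-155-3p, had 1 and 3 reads, and miR-155-5p had 725 and 359. A read of every name does not set this list apart, since the epithelial list also had a read of all its 10 names in either library. By level the macrophage and myeloid list held 36.1% of the reads in replicate 1 and 35.7% in replicate 2, of which miR-21a-5p alone held 28.0% and 25.7%.

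Lists of markers of other cells were present at lower summed levels. Of the mesenchymal or stromal list, 9 of 10 names had reads in both libraries, and the sum was 279 RpM in replicate 1 and 195 RpM in replicate 2. Its most abundant name was miR-143-3p with 1370 and 949 reads, and miR-143-5p was at 0. This list, from cells that share the bone marrow with macrophage progenitors, exceeded the locus in both libraries. The endothelial miR-126a had 458 and 374 reads, mainly from its 5p arm. The lymphoid miR-150-5p had 202 and 88 reads. The erythroid list of 3 names had 11 and 12 reads, led by miR-451a with 7 and 8, about the level of miR-127-3p.

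Among markers of tissues known for the locus, the neural list summed to 2372 reads in replicate 1 and 3110 in replicate 2. Nearly all were of miR-128-3p (2141 and 2942 reads), which is also made in blood cells. The defining neuronal miR-124 and miR-137 were at 0, and miR-9-5p had 12 and 11 reads. The brain miRNA miR-219a was present in both libraries, with 24 and 23 reads of miR-219a-5p and 44 and 46 reads of miR-219a-1-3p, and miR-128-1-5p had 151 and 86 reads. The epithelial list held 1148 and 1366 reads, led by miR-200b-3p with 496 and 827, and all its 10 names had a read in either library. In the muscle list of 9 names miR-133a-3p had 6 reads in replicate 2, and the other 8 names were at 0 in both. This list includes miR-1a but not miR-1b, of which miR-1b-3p had 11 and 14 reads and miR-1b-5p 5 and 5. Liver miR-122 had no read. The part of stromal, endothelial, blood and epithelial cells in the reads of the locus was not tested.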

How the data were processed

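Total RNA of unstimulated BMDMs was depleted of rRNA, and small RNA libraries (Illumina TruSeq) were sequenced. The authors trimmed reads, mapped them with Bowtie to miRBase mouse stem-loops and deposited raw counts per mature miRNA, with replicates kept apart. The miRBase release, mismatches and handling of multiple matches are not given in the sources used here, and they can shift counts between related names. Adapter ligation and PCR favour some sequences, so a share of reads is not a share of molecules.

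Counts were divided by the library total (RpM). Wilson, Poisson and exact binomial intervals and Fisher's exact test (two-sided) used SciPy 1.17.1 in Python 3.11.15. TMM (edgeR 4.0.16) and DESeq2 1.42.0 size factors (R 4.3.3) were alternatives, besides count minimums, pooling, thinning and omitted libraries or names. Positions came from RefSeq GRCm38.p6, and genes, miR-666 and miR-544 from GENCODE M21.

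Named members were the 12 with the highest mean share, hairpins with both arms, members differing between libraries and hairpins at 0. Other members and names outside the locus and lists were named after their values were seen. Members, imprinted lists and marker lists were chosen with earlier results of these data known.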

Additional observations from a re-analysis of the deposited data

How the results depend on the processing

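Of 37 alternatives over 8 results, 26 left the value near the one reported, 11 moved it and 0 reversed it. The summed level of the locus (4.42 RpM) was 1.50 RpM over names with at least 10 reads in each library, 2.92 RpM without miR-127-3p and 6.05 RpM of a total without miR-21a-5p. Omitting either library gave 4.20 to 4.64 RpM, and pooled reads, TMM and DESeq2 size factors gave 4.41 to 4.42 RpM. Of the 8 members seen in both libraries, 1 had at least 3 reads in each and 1 at least 10. With a single library in turn, 13 to 14 members had a read. Counted as hairpins, 34 of 52 were without reads, instead of 84 of 103 names. The share of miR-127-3p in the locus (33.8%) became 100% over names with at least 10 reads in each library, and the share of the miR-379/miR-410 group (50.0%) became 75.7% without miR-127-3p. For the Rtl1 antisense group this alternative, chosen after seeing the data, gave 22.1% instead of 48.5%. Each of these follows from the alternative's construction, with fewer names, libraries or total reads. The log2 ratio of the locus was −0.01 with TMM and 0.0 with DESeq2 size factors. Fisher's exact test called 0 members under the alternatives run, with 1 at an unadjusted p under 0.05 where no minimum was set. This says nothing about stability, since with a minimum miR-127-3p alone was tested and without it the lowest adjusted p was 0.0922.

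Depth limits every statement on single members, since 18 of the 19 detected had 5 reads or fewer in each library. For a member at 0 in both, the limit is 0.195 RpM, the level of 3 counts of both libraries pooled. The SD of 2 libraries is itself imprecise. No paired analysis was possible because there was 1 group of samples and nothing to pair it with.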
